A study of Homo sapiens with 6 samples.

Results

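JAK kinases and STAT transcription factors were examined in cells of U937T:PLZF-RARa, an engineered form of U937, a human monocytic cell line. Withdrawing tetracycline from these cells switches on PLZF-RARA, a fusion of the repressor PLZF with the retinoic acid receptor RARA that is found in acute promyelocytic leukaemia. The genes were chosen by name: STAT2, STAT3, STAT4, STAT5A, STAT5B, STAT6, JAK1, JAK2 and TYK2. Every probe set whose platform annotation gave only 1 of these 9 symbols was taken, which gave 22 of the 54675 probe sets on the array. They named 8 genes, as no annotated probe set named STAT2, so the expression of STAT2 was not analysed here. The induced group was 3 samples cultured for 48 h without tetracycline, and the uninduced group was 3 samples of the same line kept in tetracycline. The cells of both groups grew in the same serum-containing medium with puromycin and G418. The labels describe 1 engineered line, say nothing of how many clones it holds, and include no cells without the fusion gene that also lost tetracycline, so the fusion and the loss of the drug cannot be told apart. They do not say whether the replicates were separate cultures either, and the p-values then cover the spread among these samples alone, which may be technical. Each sample was hybridised to its own Affymetrix HG-U133 Plus 2.0 array.

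The cytokine receptors that use JAK kinases have no enzyme of their own. A JAK kinase bound to the receptor tail is switched on when the ligand brings the chains together, and it phosphorylates a STAT, which then pairs with another STAT, enters the nucleus and binds DNA. In myeloid cells the pathway carries interferon, interleukin and colony-stimulating factor signals. The arrays measured transcripts, so phosphorylation of these proteins was not seen.

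JAK1, STAT3 and STAT6 transcripts were higher in induced cells on every probe set of theirs that passed the filter, by 1.60-fold to 1.94-fold. JAK2 was 1.27-fold and 1.43-fold higher on 2 of its 3 probe sets, calls that several alternative settings ended, while TYK2, STAT5A and STAT5B did not pass the test. The STAT5A probe set, at 4.04 to 4.07, and the third JAK2 probe set, at 4.34 to 4.47, lay little above the filter. None of these genes fell. The filter asked for a log2 intensity above 4 on at least 3 of the 6 arrays. It left 13 of the 22 probe sets, from 7 genes. Of these 13, 8 were higher and 0 lower in induced cells, and 5 did not pass the test (limma, Benjamini-Hochberg adjusted p under 0.05 over all 20552 probe sets tested). Over all tested probe sets 34.6% were higher and 27.9% lower. The median log2 difference was 0.51 over the 13 and 0.03 over all tested probe sets. In 9 of the 13 all induced arrays lay above all uninduced arrays, which held for 38.9% of all tested probe sets. A culture was measured as a whole, so a changed share of cells and a changed level per cell cannot be told apart.

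The probe sets of the fusion partners went different ways, and which of them match the fusion transcript was not analysed here. The RARA probe set 211605_s_at had log2 intensities of 7.40 to 7.73 on the induced arrays, against 1.81 to 1.99 on the uninduced arrays. RARA 203749_s_at, at 3.95 to 4.02 in induced and 5.08 to 5.24 in uninduced samples, and the PLZF gene ZBTB16, at 2.84 to 3.96 in induced and 5.08 to 5.49 in uninduced samples, were lower (limma, adjusted p = 1.10e-05 and 8.12e-04). RARA 203750_s_at and 216300_x_at differed by -0.22 and -0.12 on the log2 scale and did not pass (limma, adjusted p = 0.133 and 0.301), and 1565358_at lay below the filter on all arrays. Of 9 myeloid markers with a probe set, 8 lay above the filter on all 6 arrays, and MPO, myeloperoxidase, lay below it on all. The log2 of the summed intensities of the 9 was 15.19 to 15.20 in induced and 15.95 to 16.13 in uninduced cells. The single markers went both ways. PTPRC and CD4 were higher in induced cells, and ITGB2, LYZ, ELANE, PRTN3, AZU1 and CTSG were lower. All 4 T cell markers and both erythroid markers lay below the filter on all arrays. PAX5, a B cell factor, at 4.76 in induced and 4.90 in uninduced cells, and the collagen gene COL1A1, at 7.71 and 8.26 in the same order, lay above it. The other B cell markers with a probe set, MS4A1 and CD79A, lay below the filter on all arrays. So did the other epithelial and stromal markers, EPCAM, KRT19 and COL1A2. The 75th percentile of all log2 values was 6.93 on the array of uninduced replicate 3 and 7.12 to 7.19 on the others. That array was the lowest of the 3 uninduced arrays in 10 of the 13 JAK and STAT probe sets and in 71.5% of all tested probe sets. RNA integrity was read from the GAPDH control as its 3' log2 value less its 5' value, which came to 0.55 to 0.62 in induced and 0.48 to 0.53 in uninduced samples. The same difference for the ACTB control was 1.296 to 1.497 in induced and 1.153 to 1.306 in uninduced samples, and these ranges overlapped. The part of RNA integrity in the results was not tested.

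The windows upstream of the start sites of 3 genes that rose, JAK1, STAT3 and STAT6, and of STAT5B, which did not pass, are shown because they were searched for short motifs. They are the 250 bases before an annotated start in RefSeq (build GRCh38.p14), read 5' to 3' on the gene's strand, with GC boxes (GGGCGG on either strand) in capitals. For JAK1 the window of 3 that holds GC boxes is given.
JAK1, chr1:64966550-64966799, minus strand: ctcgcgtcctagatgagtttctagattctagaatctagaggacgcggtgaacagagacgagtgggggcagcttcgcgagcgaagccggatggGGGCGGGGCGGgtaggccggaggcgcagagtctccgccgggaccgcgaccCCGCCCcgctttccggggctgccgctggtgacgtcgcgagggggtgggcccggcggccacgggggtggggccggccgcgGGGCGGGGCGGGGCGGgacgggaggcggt
STAT3, chr17:42388443-42388692, minus strand: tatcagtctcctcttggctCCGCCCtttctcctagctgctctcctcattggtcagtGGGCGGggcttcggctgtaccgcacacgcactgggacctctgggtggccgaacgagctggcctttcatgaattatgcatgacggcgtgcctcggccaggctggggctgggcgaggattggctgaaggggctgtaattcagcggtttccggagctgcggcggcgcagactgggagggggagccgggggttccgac
STAT6, chr12:57110290-57110539, minus strand: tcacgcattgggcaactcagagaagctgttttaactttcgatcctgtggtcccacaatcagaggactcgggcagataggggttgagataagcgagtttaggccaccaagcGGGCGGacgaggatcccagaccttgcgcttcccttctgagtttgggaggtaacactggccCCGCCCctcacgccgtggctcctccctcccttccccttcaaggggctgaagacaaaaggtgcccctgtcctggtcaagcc
STAT5B, chr17:42276392-42276641, minus strand: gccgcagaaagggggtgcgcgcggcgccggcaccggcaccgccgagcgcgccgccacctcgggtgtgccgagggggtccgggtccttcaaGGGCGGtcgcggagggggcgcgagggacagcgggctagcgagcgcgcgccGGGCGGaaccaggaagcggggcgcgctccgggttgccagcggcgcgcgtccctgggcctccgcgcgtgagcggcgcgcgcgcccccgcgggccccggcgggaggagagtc

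RefSeq lists 17 such windows for the 9 genes. A GC box was found in 7 of them, 1 window in each of 7 genes, and in 42.6% of all 35116 windows. The STAT site TTCNNNGAA and the interferon response element GAAANNGAAA were found in 0 of the 17, against 6.57% and 3.02% of all windows. The E-box CACGTG, the site of MYC, was also found in 0 of the 17, against 6.34% of all. The nuclear receptor half-site AGGTCA was found in 1, upstream of STAT5A, and in 12.1% of all windows. Both strands were searched, and adjacent GC boxes may overlap. GC boxes stand upstream of JAK1, STAT3 and STAT6, and also of JAK2, STAT2, STAT5A and STAT5B.

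JAK1 is the kinase shared by most interferon and interleukin receptors. Its probe set 201648_at had log2 intensities of 11.50, 11.77 and 11.53 in the induced samples, against 10.67, 10.69 and 10.57 in the uninduced samples. The induced values all lay above the uninduced ones and were 1.94-fold higher (95% interval 1.67 to 2.24; limma, adjusted p = 9.58e-05). A second JAK1 probe set, 1552610_a_at, had 8.17, 8.29 and 8.25 in the induced samples, against 7.72, 7.46 and 7.27 in the uninduced samples. These groups did not overlap either, at 1.68-fold (95% interval 1.39 to 2.03; limma, adjusted p = 0.00112). The JAK1 probe sets 1552611_a_at, 239695_at and 240613_at stayed below a log2 value of 4 on all arrays and gave no fold.

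JAK2 is the kinase of the receptors for GM-CSF, erythropoietin and thrombopoietin and one of those of the interferon gamma receptor. Its probe set 205841_at read 5.70, 5.44 and 5.76 in induced samples, against 4.99, 5.40 and 4.96 in uninduced samples. The lowest induced value was 5.44 and the highest uninduced value 5.40, so the groups were nearly in contact. The change was 1.43-fold (95% interval 1.13 to 1.80; limma, adjusted p = 0.0165). The probe set 205842_s_at read 5.39, 5.50 and 5.31 in induced samples, against 4.86, 5.15 and 5.16 in uninduced samples. It was 1.27-fold higher with no overlap (95% interval on the log2 scale 0.10 to 0.59; limma, adjusted p = 0.0227). The third JAK2 probe set, 1562031_at, lay between 4.34 and 4.47 on all 6 arrays and differed by 0.02 on the log2 scale (95% interval -0.13 to 0.17). Quantile normalization lowered the log2 differences of 205841_at and 205842_s_at to 0.31 and 0.14, against 0.51 and 0.34 here, and ended both calls (limma, adjusted p = 0.0628 and 0.287). Leaving out the filter ended both too (adjusted p = 0.0751 and 0.0753), and median centring ended that of 205842_s_at, at 0.26 (adjusted p = 0.0874). Leaving out an array did so for 205841_at with induced replicate 1 or 3 or uninduced replicate 1 or 3 (adjusted p = 0.0535 to 0.0563), and for 205842_s_at with induced replicate 1 or 2 or uninduced replicate 1 (0.0516 to 0.0752).

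TYK2 works beside JAK1 at the receptors for type I interferon and interleukin 10, and beside JAK2 at the interleukin 12 receptor. Its single probe set, 205546_s_at, read 8.79, 9.11 and 8.88 in induced samples, against 8.89, 8.93 and 8.68 in uninduced samples. The groups overlapped, and the change was 1.06-fold (95% interval 0.891 to 1.27; limma, adjusted p = 0.494). On each array the JAK1 probe set 201648_at was set against TYK2, both relative to their uninduced means. JAK1 gained 0.86 more on the log2 scale than TYK2, with per-array gains of 0.90, 0.85 and 0.85 in induced samples, against -0.03, -0.05 and 0.08 in uninduced samples. The two-sided exact permutation p was 0.1, the smallest that 3 arrays against 3 allow. JAK1 gained 0.44 more than JAK2 (205841_at), with an exact permutation p of 0.1 as well. The per-array gains were 0.27, 0.80 and 0.25 in induced samples, against 0.15, -0.23 and 0.08 in uninduced samples. Their SD in induced samples was 0.31, against 0.03 for JAK1 beside TYK2. These are 2 of 4 such pairs, all chosen after the values were seen, and each had p = 0.1 after adjustment over the 4 (exact permutation).

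**Figure D1:**
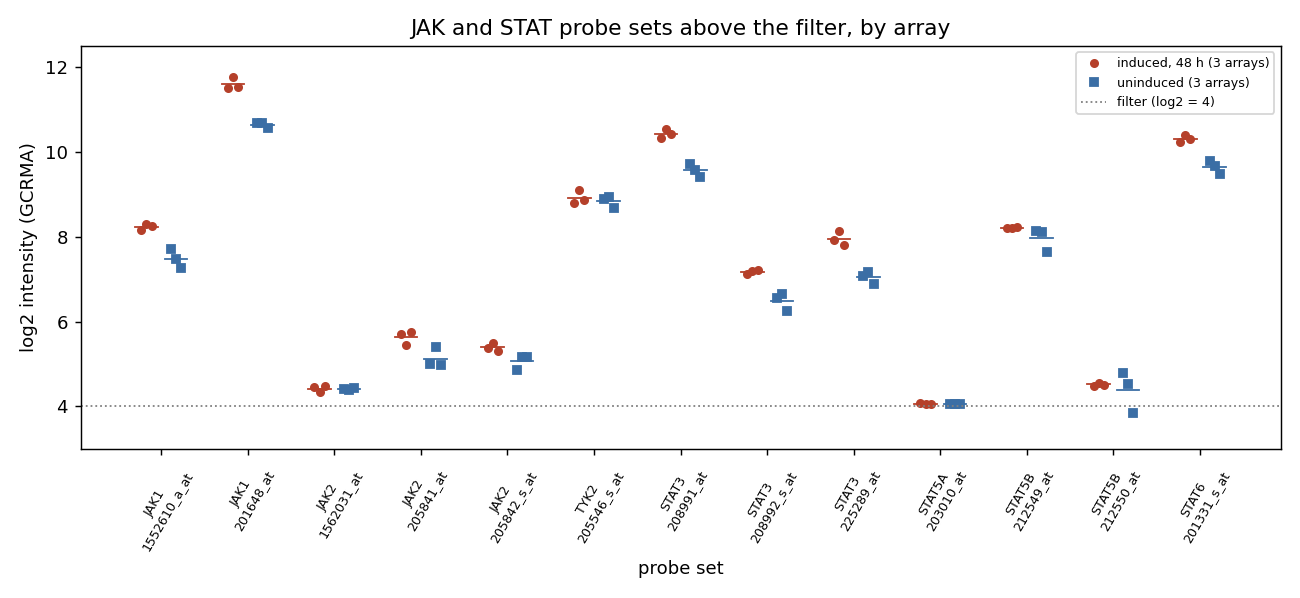
Log2 GCRMA intensity (vertical axis) of the 13 JAK and STAT probe sets above the filter (horizontal axis), with a point for each array, induced (circles) left of uninduced (squares), short lines at the group means and a dotted line at the filter of 4. The JAK1, STAT3 and STAT6 groups stand apart, TYK2 and STAT5B 212550_at overlap, and STAT5A lies on the filter.

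STAT3 is the main factor of interleukin 6, interleukin 10 and G-CSF signals. Its probe set 208991_at read 10.33, 10.54 and 10.42 in induced samples, against 9.73, 9.57 and 9.41 in uninduced samples. It was 1.81-fold higher with no overlap (95% interval 1.54 to 2.13; limma, adjusted p = 2.59e-04). The probe set 225289_at read 7.92, 8.13 and 7.81 in induced samples, against 7.08, 7.17 and 6.88 in uninduced samples. The rise was 1.88-fold (95% interval 1.56 to 2.25; limma, adjusted p = 3.56e-04). The third, 208992_s_at, read 7.13, 7.20 and 7.21 in induced samples, against 6.56, 6.64 and 6.26 in uninduced samples. It gave 1.62-fold (95% interval 1.36 to 1.92; limma, adjusted p = 0.00111). The intervals of the 3 probe sets overlapped, and the remaining STAT3 probe set, 243213_at, lay below the filter on all arrays.

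STAT6 carries interleukin 4 and interleukin 13 signals. Its probe set 201331_s_at read 10.24, 10.40 and 10.30 in induced samples, against 9.78, 9.66 and 9.47 in uninduced samples. All induced values lay above all uninduced values, at 1.60-fold (95% interval 1.37 to 1.87; limma, adjusted p = 6.63e-04). The other STAT6 probe set, 201332_s_at, lay between 2.01 and 2.05 on all arrays and measured nothing above the filter.

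STAT5A and STAT5B are close copies that act downstream of GM-CSF, interleukin 3 and other cytokines. In the RefSeq annotation STAT5B, STAT5A and STAT3 are consecutive protein-coding genes on chromosome 17. The STAT5B probe set 212549_at read 8.20, 8.21 and 8.23 in induced samples, against 8.13, 8.10 and 7.64 in uninduced samples. The induced values were all higher, but uninduced replicate 3 lay apart from the other uninduced arrays. The change of 1.19-fold did not pass (95% interval 0.960 to 1.49; limma, adjusted p = 0.134). Without uninduced replicate 3 its log2 difference was 0.098, against 0.26 with it (limma, adjusted p = 0.145 without it). The probe set 212550_at read 4.48, 4.56 and 4.51 in induced samples, against 4.79, 4.52 and 3.85 in uninduced samples. It overlapped fully and differed by 0.13 on the log2 scale (95% interval -0.39 to 0.66). Without uninduced replicate 3 the difference was -0.14 (limma, adjusted p = 0.255). The STAT5B probe sets 1555086_at, 1555088_x_at and 205026_at lay below the filter on all arrays.

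The only STAT5A probe set, 203010_at, lay between 4.04 and 4.07 on all 6 arrays, just above the filter. Its whole range was 0.0240 on the log2 scale, so it gave no measured change (0.997-fold, 95% interval 0.913 to 1.09; limma, adjusted p = 0.956). Which bases of STAT5A and STAT5B the probes match was not analysed here. The only STAT4 probe set, 206118_at, lay between 2.11 and 2.14 on all arrays, below the filter. STAT4 carries interleukin 12 signals in lymphocytes.

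STAT3 208991_at gained 0.60 more on the log2 scale than STAT5B 212549_at. The per-array gains were 0.52, 0.71 and 0.58 in induced samples, against -0.01, -0.15 and 0.16 in uninduced samples. STAT6 gained 0.42 more than STAT5B, with 0.36, 0.51 and 0.39 in induced samples, against -0.03, -0.12 and 0.15 in uninduced samples. Neither set of gains overlapped, and the two-sided exact permutation p was 0.1 for each, again the smallest possible.

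**Figure D2:**
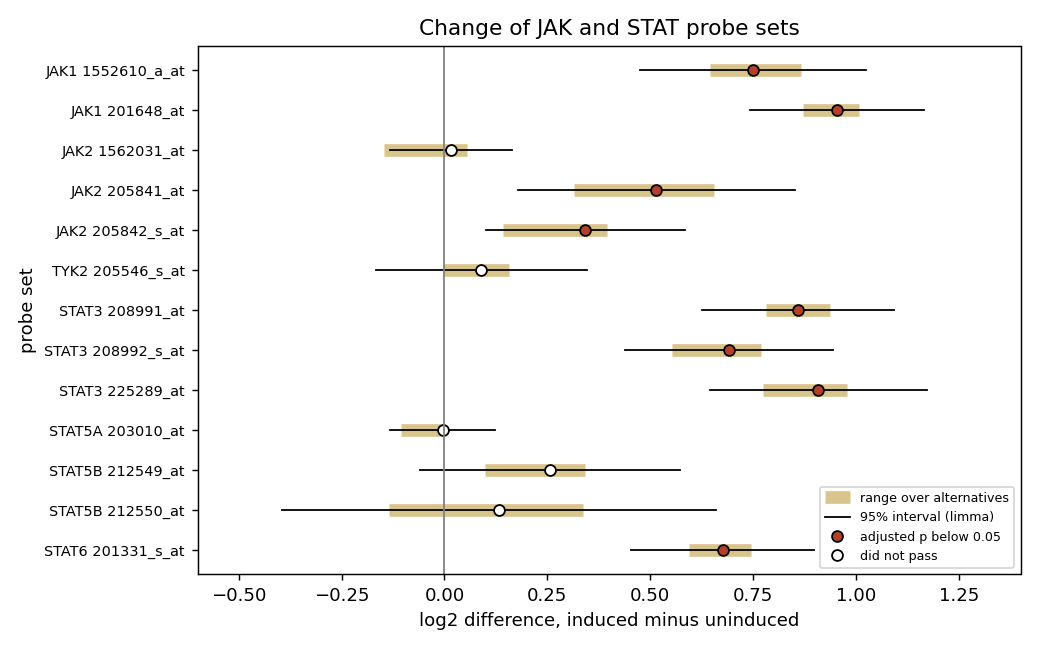
Log2 difference, induced minus uninduced (horizontal axis), of the same 13 probe sets (vertical axis), with black lines for the 95% interval of the limma fit, pale bars for the range over 13 to 15 alternative settings, and filled points for an adjusted p under 0.05. The 6 probe sets of JAK1, STAT3 and STAT6 keep clear of 0 in their interval and their range, and the largest difference is 0.95 for JAK1 201648_at.

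The probe sets whose 6 values, each minus its uninduced mean, were nearest to those of JAK1 201648_at were sought among 17549 probe sets of other genes. They were TROAP 204649_at at a Euclidean distance of 0.0690, KLHL18 212882_at at 0.0789 and LEPROTL1 202594_at at 0.0844 on the log2 scale over 6 arrays. LEPROTL1 is known as a relative of the leptin receptor overlapping transcript. Their log2 differences were 0.96, 0.93 and 0.97, beside 0.95 for JAK1. With 2 groups and 6 arrays this likeness says little beyond a similar difference between the groups.

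The genes around the kinases and STATs moved in both directions. A gene counted as measured where a probe set naming only that gene passed the filter. Taken by gene, with the brightest tested probe set of each, 4 of the 7 measured JAK and STAT genes were higher and 0 lower, while 35.8% of 9836 tested genes were higher and 30.7% lower. Of 110 further genes of the pathway 71 were measured, of which 43 were higher, 14 lower and 14 did not pass. Their median log2 difference was 0.68, beside 0.02 over all tested genes. Some of the 71, IL10RA, SOCS1 and IFIT1 among them, passed the filter through the induced arrays alone. The count and median therefore depend in part on the filter. Without it 45 of 107 pathway genes were higher and 14 lower. The shares of 35.8% higher and 30.7% lower over all tested genes are those to hold beside the main count of each list below. For counts under other settings the background is given by probe set. Without the filter 6429 of 54613 probe sets were higher and 5030 lower. After quantile normalization 6759 of 20552 were higher and 8077 lower, and after median centring 6579 and 7106.

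Of 31 receptor chains 16 were measured, of which 7 rose and 4 fell, with a median log2 difference of 0.15. Without the filter 9 of 30 rose and 4 fell, with a median of 0.02. IL2RG, the common gamma chain of the interleukin 2 family of receptors, was 3.38-fold higher (12.93 ± 0.05 in induced and 11.17 ± 0.10 in uninduced cells, SD, n = 3 each; limma, adjusted p = 3.16e-06). Both chains of the interleukin 10 receptor, which use JAK1 and TYK2, rose. IL10RA averaged 6.10 ± 0.23 in induced cells and lay below the filter on all uninduced arrays (3.67 ± 0.04, SD, n = 3 each), so the rise was at least 4.29-fold (limma, adjusted p = 5.60e-06), and IL10RB was 1.66-fold higher. IL6ST, the shared signal chain gp130 upstream of STAT3, was 2.32-fold higher (limma, adjusted p = 1.77e-04). IL12RB1 was 1.60-fold higher on its brightest probe set, 1 of 2 tested that passed. CSF2RA, the ligand-binding chain for GM-CSF, fell to 5.26 ± 0.04 in induced cells, against 6.41 ± 0.10 in uninduced cells (SD, n = 3 each; limma, adjusted p = 1.62e-05), as all 3 of its tested probe sets did. The other chains that fell, named after their values were seen, were IL6R, CSF3R and IL13RA1. Their log2 differences were -0.49, -0.63 and -0.26 (limma, adjusted p = 5.55e-04, 7.12e-04 and 0.0275), and all their tested probe sets were lower. For the chains of the interferon receptors, named after their values were seen, IFNAR1 and IFNGR2 were 1.57-fold and 1.41-fold higher, while IFNAR2 and IFNGR1 differed by 0.14 and 0.05 on the log2 scale and did not pass on their brightest probe sets (limma, adjusted p = 0.110 and 0.489). Of the 3 tested IFNAR2 probe sets 1 was higher. IFNGR1 turned to -0.03 after median centring, without passing (limma, adjusted p = 0.669).

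Of 20 inhibitors of the pathway 18 were measured, of which 11 rose and 3 fell, with a median log2 difference of 0.35. After quantile normalization 11 rose and 6 fell. PIAS3, which binds STAT3 and blocks its DNA binding, was 4.75-fold higher (8.18 ± 0.06 in induced and 5.94 ± 0.22 in uninduced cells, SD, n = 3 each; limma, adjusted p = 7.24e-06). SOCS1, which inhibits the JAK kinases directly, averaged 5.68 ± 0.46 in induced cells and lay below the filter on all uninduced arrays (3.30 ± 0.05, SD, n = 3 each), so the rise was at least 3.20-fold (limma, adjusted p = 7.66e-05). USP18, which restrains the type I interferon receptor, was 4.68-fold higher. Among the tyrosine phosphatases, PTPRC (CD45) was 3.41-fold and PTPN1 1.96-fold higher, while PTPN6 (SHP-1) fell by 1.76 on the log2 scale (8.47 ± 0.18 in induced and 10.23 ± 0.23 in uninduced cells, SD, n = 3 each; limma, adjusted p = 4.51e-05). The others on the list, PTPN2 and PTPN11, were picked with their values known. PTPN2 was lower, at -0.58 (limma, adjusted p = 1.37e-04), although 1 of its 3 tested probe sets was higher. PTPN11 differed by -0.007 and did not pass (limma, adjusted p = 0.934). SOCS3, picked with its values known, and CISH are feedback genes that STAT3 and STAT5 are known to induce. They differed by -0.07 and -0.11 on the log2 scale and did not pass (limma, adjusted p = 0.430 and 0.190), although 1 of the 3 tested CISH probe sets was lower. After quantile normalization both passed as lower, at -0.25 and -0.29 (limma, adjusted p = 0.0490 and 0.00682), and after median centring CISH did, at -0.19 (limma, adjusted p = 0.0379). SOCS3 was dim, at 4.88 ± 0.03 in induced and 4.95 ± 0.10 in uninduced cells (SD, n = 3 each). SOCS2, also named as a STAT3 and STAT5 target and picked with its values known, was lower, at -0.59 (limma, adjusted p = 9.28e-05).

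All 10 partner proteins were measured, of which 6 rose and 0 fell, with a median log2 difference of 0.77. After quantile normalization 7 rose and 1 fell. IRF9, the DNA-binding partner of STAT2 in the interferon-induced complex, averaged 6.70 ± 0.25 in induced cells and 3.99 ± 0.31 in uninduced cells (SD, n = 3 each; limma, adjusted p = 2.30e-05). As 1 of the 3 uninduced arrays lay above the filter, no fold is given. The coactivators NCOA1 and EP300, which STATs recruit, were 3.30-fold and 2.18-fold higher, and the adaptor STAM was 1.58-fold higher (limma, adjusted p = 9.02e-06, 4.17e-05 and 1.16e-04).

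Of 22 interferon targets 15 were measured, of which 12 rose and 2 fell, with a median log2 difference of 1.43. Some of the 15, IRF7, IFIT1 and IFIT2 among them, passed the filter through the induced arrays alone, so this count and median depend in part on the filter. Without the filter 12 of the 22 rose and 2 fell, with a median log2 difference of 1.11. IRF7, which amplifies the type I interferon response, averaged 7.18 ± 0.16 in induced cells and lay below the filter in uninduced cells (3.67 ± 0.15, SD, n = 3 each), so the rise was at least 9.04-fold (limma, adjusted p = 1.16e-06). IFIT1 and IFIT2, which bind viral RNA, lay below the filter on all uninduced arrays too and rose at least 14.1-fold and 29.03-fold (limma, adjusted p = 3.94e-07 and 1.02e-06). IRF8, a monocyte factor, fell by 2.55 on the log2 scale (limma, adjusted p = 9.97e-07).

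Of 20 genes named as STAT3 and STAT5 targets 14 were measured, of which 6 rose and 6 fell, with a median log2 difference of -0.09. After quantile normalization 6 rose and 8 fell. MYC fell by 3.51 on the log2 scale, the kinase PIM1 fell by 2.16 and the differentiation inhibitor ID1 fell by 1.56, and HIF1A, the hypoxia factor, was 2.52-fold higher (limma, adjusted p = 2.16e-07, 9.93e-06, 1.13e-05 and 4.42e-06). Of 14 STAT6 targets only 3 had a probe set above the filter. KLF4 was 9.79-fold higher (8.97 ± 0.04 in induced and 5.68 ± 0.47 in uninduced cells, SD, n = 3 each; limma, adjusted p = 1.98e-05), and the other two were SOCS1 and CISH. With CISH, 1 of the 3 was lower after quantile normalization and after median centring. Without the filter all 14 STAT6 targets were tested, of which 3 rose and 0 fell, with a median log2 difference of -0.004. These lists share SOCS1, CISH and other members, and many of the genes are known to answer to other factors too.

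**Figure D3:**
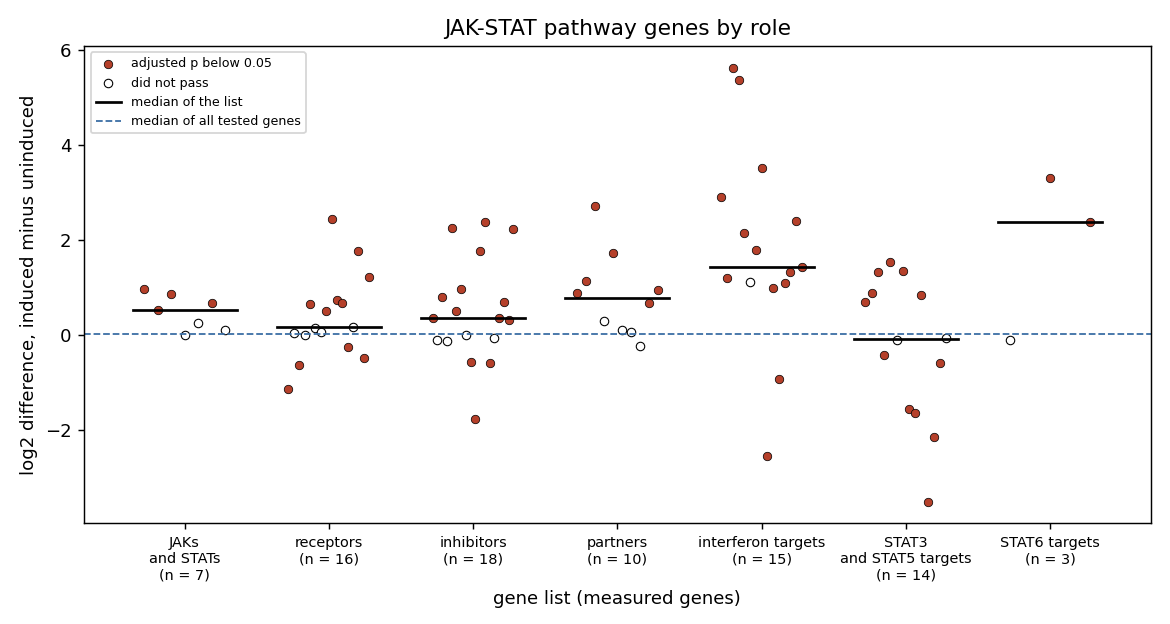
Log2 difference, induced minus uninduced (vertical axis), for the measured genes of each role (horizontal axis), with a point per gene, filled where the adjusted p was under 0.05, black lines at the list medians and a dashed line at the median of all tested genes, 0.02. The JAKs and STATs lie between -0.00411 and 0.95, while interferon targets reach 5.62, a measured value whose uninduced level lies below the filter, and STAT3 and STAT5 targets go down to -3.51.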

How the data were processed

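The deposited values are intensities, 1 for each probe set on each array. The authors made them with GCRMA, according to the submitters' processing notes. GCRMA uses the probe sequence to correct background, normalizes, and summarises the probes of a set, and it compresses dim ones. Its version, later scaling and whether the arrays were normalized together were not given in the sources used. The scale was linear, and the 6 values under 1 were raised to 1 before the log2 was taken.

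The 62 Affymetrix controls were left out. A gene was named only from the 41091 probe sets to which the platform annotation gave a single symbol (1801 had several, 11721 none). Groups, taken from the sample titles, were compared without covariates over the 20552 probe sets above the filter, by two-sided moderated tests in limma 3.58.1 (R 4.3.3; lmFit, then eBayes). "Rose", "fell", "higher" and "lower" refer to an adjusted p under 0.05. A fold against a group below the filter on all arrays is a bound against a log2 value of 4. The number of arrays limits the precision. The fit was tested on simulated data.

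The genes and lists were chosen with earlier results of these data known. The genes named are all JAK and STAT probe sets, up to 4 per list with the smallest adjusted p, up to 2 more receptors and inhibitors by size, and the 3 most alike to the largest rise. Apart from the fusion partners and the cell type markers, any other gene is marked in the text as picked with its values known. The alternatives changed the filter, the scaling, the variance model, array weights, the replicate block, the probe set types, an offset of 16 and the arrays used. Figures were drawn with matplotlib 3.10.9.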

Additional observations from a re-analysis of the deposited data

How the results depend on the processing

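The 6 called probe sets of JAK1, STAT3 and STAT6 passed under every alternative in which they were tested, with log2 differences of 0.55 to 1.01. The 2 called JAK2 probe sets lost their call in 12 of 27 alternative fits, and the cause was not tested. No JAK or STAT probe set that missed the threshold passed under an alternative, and none was called lower. The number of called JAK and STAT probe sets was 6 to 8 in all settings but that without the _x_at and _s_at probe sets, against 8 here. In that setting it was 5 of 9 tested, and 7537 of all probe sets were called, since fewer were tested. With the replicate block 8 JAK and STAT probe sets, 4 genes, 58 other pathway genes and 12809 of all probe sets were called, against 8, 4, 57 and 12845 without it, so no call of a JAK or STAT probe set changed. The deviations of same-numbered arrays from their group means correlated at -0.17, 0.00 and 0.18, so the shared numbers showed no steady pairing. Those of differently numbered arrays correlated at -0.24 to 0.21, and a pairing in another order was not tested. Quantile normalization gave 6759 higher and 8077 lower among all probe sets, and median centring 6579 and 7106, against 7112 and 5733 here.

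Among the JAK and STAT probe sets, signs turned only where the difference passed in neither fit. With array weights STAT5B 212550_at gave -0.051 and TYK2 -0.00463, and JAK2 1562031_at gave -0.15 after quantile normalization and -0.063 after median centring. Leaving out each array in turn, the differences were -0.0101 to 0.00189 for STAT5A 203010_at, 0.098 to 0.34 for STAT5B 212549_at, whose sign held, -0.14 to 0.34 for STAT5B 212550_at, -0.00850 to 0.055 for JAK2 1562031_at and -0.00115 to 0.16 for TYK2. STAT4 and the 8 other JAK and STAT probe sets below the filter gave no fold.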
